A study of Mus musculus with 2 samples.

Results

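The genes described here belong to the Hippo pathway, a kinase cascade that restrains growth. They encode coactivators (Yap1, Wwtr1), DNA-binding factors (Tead1, Tead2, Tead3), kinases (Lats1, Lats2) and upstream proteins (Nf2, Amotl1, Amotl2). They were chosen as a list of gene symbols, and their m6A peaks were the peaks of the deposited list whose summit, the position of highest signal, lay inside the RefSeq gene span in mm10. All 10 genes were matched, and 50 of the 38366 peaks belonged to them. N6-methyladenosine (m6A) is a mark on adenosines inside mRNA that reader proteins recognise and that affects the splicing, stability and translation of transcripts. It was mapped by sequencing RNA fragments bound by an anti-m6A antibody beside fragments of an input without antibody. The immunoprecipitated (IP) group was 1 library from whole uterus of wild-type C57BL/6 mice, for which GD4 and GD8 uteri, read here as gestation days 4 and 8, were combined in equal parts. The input group was 1 library from whole uterus of the same strain, with no antibody and no pooling named. Whether the input held the same mix of days is not given, and its bearing on the comparison was not tested. The names in the peak list carry D8 and do not mention day 4, so the makeup of the IP sample rests on its label. With 1 library per group there was no replicate and no test between groups. The number of animals is not given in the sources used here, and the days cannot be told apart.

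In the Hippo pathway, Lats kinases phosphorylate Yap1 and its relative TAZ, the product of Wwtr1, which keeps both out of the nucleus. Merlin, the product of Nf2, and the angiomotin family sit at cell junctions and the cortex and promote this restraint, the angiomotins also by binding Yap1 directly. When the restraint is lifted, Yap1 and TAZ enter the nucleus and bind TEAD factors, which carry them to target genes of growth and matrix, and Lats2 and Amotl2 are themselves known targets that feed back on the pathway. The pathway responds to cell density, stretch and matrix stiffness, which change in the uterus as it grows around the embryo.

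The Hippo genes carried between 1 and 13 peaks each. The number differed among some close relatives, such as Amotl1 and Amotl2, and was the same in Tead2 and Tead3. Amotl1 had 13 peaks, Lats2 and Amotl2 had 8 each, Lats1 and Tead1 had 5 each, and Nf2 had 4. Yap1, Tead2 and Tead3 had 2 each, and Wwtr1 had 1. A peak was present in 10 of 10 members, where 55.7% of the 21787 protein-coding genes had one. At least 5 peaks were present in 5 members, against a background of 8.33% of protein-coding genes, and at least 8 in 3 members, against 2.74%. When summits in more than 1 gene were left out, all 10 members still had a peak, against 51.1% of protein-coding genes. With a fold of at least 4 required, 9 had one (all but Wwtr1), against 51.5%. The median gene span was 64.6 kb in the members and 25.1 kb in all peak-carrying protein-coding genes, and span was not matched in these counts. Moreover, the members were chosen with earlier results of these data known. The shares cover all protein-coding genes, expressed in this tissue or not.

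Fold enrichment is the authors' ratio of IP fragments to local background at the summit, with 1 fragment added to both. The range in brackets after a fold is its exact 95% Poisson interval, computed from the IP fragments while the background is taken as known. It covers counting error alone, and sequenced copies of 1 molecule are not independent. Over the 50 peaks the fold ranged from 2.85 to 13.6 with a median of 5.77, where the median over all peaks of the list was 6.16. The summits were covered by 8 to 176 IP fragments with a median of 55.5, against 29 over all peaks. The local background, which comes from the input, had a median of 7.60 scaled fragments at the member peaks and 3.33 over all peaks. All 10 markers of the uterine wall that were checked had a peak (Pgr, Esr1, Hoxa10, Hoxa11, Msx1, Hand2, Wt1, Foxa2, Acta2 and Myh11). Among markers of other tissues, Alb, Apoa2 and Cdx2 had a peak and Ins2 and Myh6 had none. As 55.7% of all protein-coding genes had a peak, its presence alone does not identify the tissue.

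Peaks touched a window around an annotated transcript start in 4 of the 9 members whose start was in the RefSeq table used here. The stretches of 3 of them, Yap1, Lats2 and Amotl2, are shown first because peaks counted in these genes overlap them. Each window ran from 250 bases before to 50 bases after a start, and 5 of 14 member windows were touched by a peak, where 12.1% of 21263 windows of protein-coding genes were. That share includes windows of genes without any peak, whereas all members had one, so the shares are not like for like. The touched windows belong to Yap1, Lats2 and Amotl2, and to Lats1, where the peak was counted in the neighbouring gene Pcmt1. The windows of Wwtr1 overlap each other, as do those of Tead3. The sequences are from RefSeq (GRCm38.p6, the assembly of mm10), written 5′ to 3′ on the transcribed strand, and hold 250 bases before the start and the first 30 after it. Capitals mark the bases that lie inside the m6A peak. The Yap1 stretch is chr9:8004567-8004846 on the minus strand. The Lats2 stretches are chr14:57746094-57746373 for the first start and chr14:57734389-57734668 for the second, both on the minus strand. The Amotl2 stretch is chr9:102717554-102717833 on the plus strand.
Yap1 start: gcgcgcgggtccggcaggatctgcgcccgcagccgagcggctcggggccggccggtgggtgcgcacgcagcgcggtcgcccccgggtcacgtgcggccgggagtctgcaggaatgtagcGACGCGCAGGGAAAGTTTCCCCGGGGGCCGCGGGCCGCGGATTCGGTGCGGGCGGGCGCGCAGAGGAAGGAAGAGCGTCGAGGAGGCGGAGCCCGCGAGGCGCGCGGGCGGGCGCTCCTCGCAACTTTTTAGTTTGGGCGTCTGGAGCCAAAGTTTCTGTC
Lats2 first start: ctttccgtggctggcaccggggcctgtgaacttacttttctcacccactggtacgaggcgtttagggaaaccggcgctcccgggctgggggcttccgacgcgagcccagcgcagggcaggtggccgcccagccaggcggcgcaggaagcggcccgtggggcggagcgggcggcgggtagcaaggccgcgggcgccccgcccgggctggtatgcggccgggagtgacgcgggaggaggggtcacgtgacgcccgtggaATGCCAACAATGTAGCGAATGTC
Lats2 second start: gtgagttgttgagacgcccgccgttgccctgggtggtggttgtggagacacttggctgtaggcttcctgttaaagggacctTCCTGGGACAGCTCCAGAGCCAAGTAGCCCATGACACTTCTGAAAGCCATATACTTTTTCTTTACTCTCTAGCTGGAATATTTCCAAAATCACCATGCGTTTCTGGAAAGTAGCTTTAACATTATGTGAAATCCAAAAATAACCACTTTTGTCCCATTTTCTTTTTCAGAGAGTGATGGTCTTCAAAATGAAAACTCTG
Amotl2 start: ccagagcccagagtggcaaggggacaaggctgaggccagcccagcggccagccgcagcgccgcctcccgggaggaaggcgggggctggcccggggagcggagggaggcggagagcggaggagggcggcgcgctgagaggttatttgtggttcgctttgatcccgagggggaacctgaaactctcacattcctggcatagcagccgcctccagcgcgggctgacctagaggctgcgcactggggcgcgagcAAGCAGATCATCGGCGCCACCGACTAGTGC

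In Yap1, 131 of the printed bases inside the peak lay before this annotated start, and in the second Lats2 start 169 did. At the first Lats2 start the peak began inside the transcript, and 23 of the printed bases were in it. The Amotl2 peak began at the annotated first base itself. The stretches around the Yap1, first Lats2 and Amotl2 starts were rich in G and C, at 74.0%, 71.7% and 68.7% of the window, whereas the second Lats2 window stood at 42.7%. The median of all windows was 56.3%. The letters GGAC, the core of a common m6A sequence context, were searched on both strands. On the transcribed strand they occurred 1 time in the Yap1 window, 0 and 2 times in the first and second Lats2 windows and 1 time in the Amotl2 window. On the other strand they occurred 1, 1, 1 and 0 times in the same order. Of all windows, 68.0% held GGAC on the transcribed strand and 89.5% on either. Among the capital letters on the transcribed strand, GGAC occurred 1 time, at the second Lats2 start. The capitals are only part of each peak: 161 of 440 bases in Yap1, 23 of 220 and 199 of 668 in Lats2, and 30 of 205 in Amotl2. The summits lie past the printed bases, at 38, 103, 88 and 101 bases after the start in the same order. The count in capitals therefore does not cover the rest of each peak. Anti-m6A antibodies also bind the related cap-adjacent m6Am, and the peak list does not tell them apart.

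The coactivator genes had few peaks, and these lay at opposite ends of Yap1. Yap1 (NCBI Gene 22601, chromosome 9, 7931999 to 8004638, minus strand) encodes the main effector of the pathway. Its 5′ peak, at 8004288 to 8004727, had 7.90-fold enrichment (5.13 to 11.7) with 23 IP fragments at the summit and a background of 2.04. The summit lay 80 bases inside the 5′ end of the gene span and 38 bases after the annotated start. Its other peak, 965 bases wide at 7933935 to 7934899, had 4.09-fold enrichment (3.31 to 4.99) with 94 IP fragments and a background of 22.2. That summit lay 2651 bases from the 3′ end of the span. The intervals of the 5′ and 3′ peaks did not overlap: the 3′ peak held more IP fragments and had the lower fold.

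Wwtr1 (NCBI Gene 97064, chromosome 3, 57455644 to 57575910, minus strand), which encodes TAZ, had a single narrow peak. It spanned 206 bases at 57477501 to 57477706 and reached 2.96-fold (2.17 to 3.95), with 44 IP fragments and a background of 14.2. Among protein-coding genes with a peak, 2.34% had a lower highest fold. The summit lay 21911 bases from the 3′ end and 98355 bases from the 5′ end, so Wwtr1 had no peak near either end. Its interval did not overlap that of the 5′ peak of Yap1 and overlapped that of the 3′ peak.

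The TEAD genes carried 9 peaks, none of which reached 7-fold. These genes encode the DNA-binding partners of Yap1 and TAZ. Tead1 (NCBI Gene 21676, chromosome 7, 112679356 to 112906784) has the longest span of the members, 227.4 kb, and had 5 peaks. In order of coordinate their folds were 4.44 (2.61 to 7.14), 5.56 (3.85 to 7.77), 5.63 (4.14 to 7.50), 6.73 (4.84 to 9.14) and 5.28 (4.26 to 6.47). All 5 intervals of Tead1 overlapped that of its highest peak, at 112857061 to 112857362. The last peak, at 112903893 to 112904932, was the widest of the 5 at 1040 bases and had 91 IP fragments, against 15 to 45 in the others. Its summit lay 2124 bases from the right end of the span.

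Tead2 (NCBI Gene 21677, chromosome 7, 45215792 to 45233468, plus strand) had the weakest support of the members. Its upstream peak, at 45219255 to 45219454, had 5.17-fold enrichment (2.56 to 9.63) but only 8 IP fragments over a background of 0.741. Without the fragment added to both terms this ratio would be 10.8, so the value depends on that convention. Its other peak, at 45233269 to 45233472, had 2.85-fold enrichment (1.85 to 4.22) from 23 IP fragments, with the summit 88 bases from the 3′ end. These peaks had the lowest −log10 q of the 50, at 4.70 and 3.73. With a −log10 q of at least 5 required, Tead2 had no peak and the other 9 members had one, where 53.1% of protein-coding genes had one.

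Tead3 (NCBI Gene 21678, chromosome 17, 28331671 to 28350805, minus strand) had a similar arrangement. A peak of 200 bases at 28341386 to 28341585, in the middle of the span, had 5.26-fold enrichment (3.03 to 8.58) from 14 IP fragments. A peak of 645 bases at 28332228 to 28332872, with its summit 885 bases from the 3′ end, had 4.47-fold enrichment (3.13 to 6.20) from 34 IP fragments. In both Tead2 and Tead3 the peak nearer the 3′ end had more IP fragments and the lower fold, and the intervals overlapped within each gene.

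**Figure D1:**
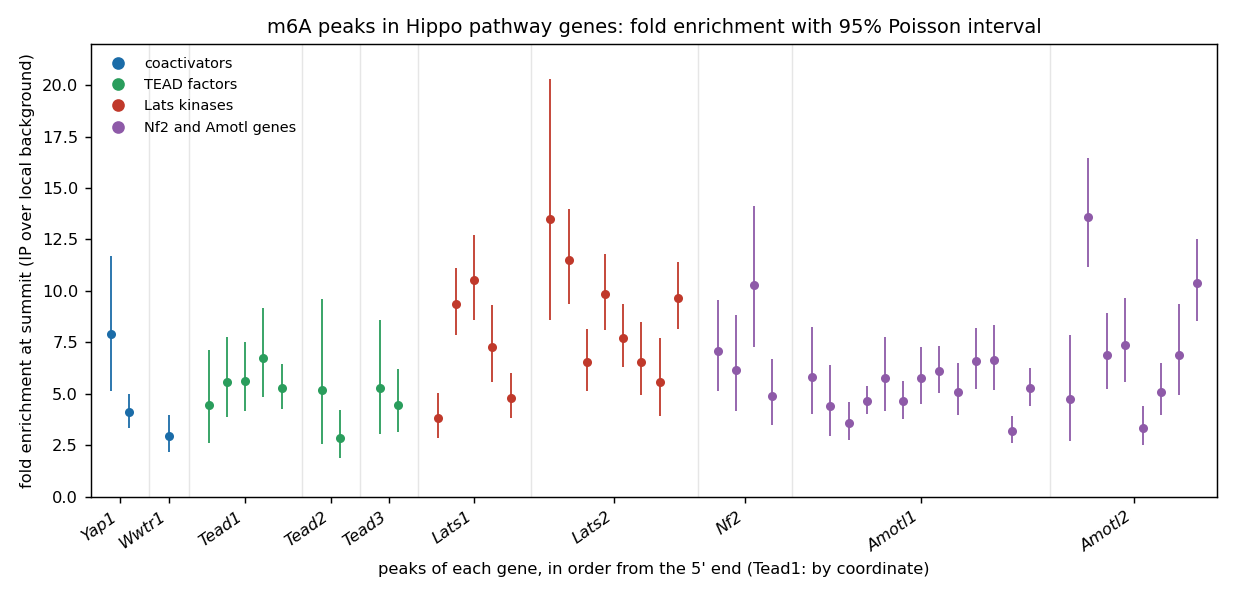
Fold enrichment at the summit of each of the 50 peaks (vertical axis, linear) by gene, in order from the 5′ end and, for Tead1, by coordinate. Points are the authors' folds and bars their exact 95% Poisson intervals; the Lats2 and Amotl2 points reach 13.5 and 13.6 while the Wwtr1 point is at 2.96.

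The kinase genes Lats1 and Lats2, whose products phosphorylate Yap1 and TAZ, carried 13 peaks with a median of 7.71-fold. Lats1 (NCBI Gene 16798, chromosome 10, 7681200 to 7716461, plus strand) had 5 peaks. Their folds from 5′ to 3′ were 3.82 (2.85 to 5.01), 9.38 (7.85 to 11.1), 10.5 (8.60 to 12.7), 7.25 (5.56 to 9.30) and 4.81 (3.81 to 5.98). The highest, at 7705286 to 7706003, had 103 IP fragments, and the peak before it, at 7701529 to 7703113, had 130 and was the widest of all member peaks at 1585 bases. The first and the last Lats1 peaks had intervals entirely below that of the highest. The nearest Lats1 summit to the 3′ end lay 3598 bases from it.

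A further peak touched the start of Lats1 without being counted in it. It spanned 7680907 to 7681351 with 6.31-fold enrichment (3.87 to 9.77) from 18 IP fragments. Its summit lay 23 bases outside the Lats1 span and inside Pcmt1, a gene on the minus strand that overlaps Lats1 by 138 bases. Its interval overlapped that of the highest Lats1 peak. Without strand in the list, the signal could not be given to either gene. By contrast, the summit of the 5′ peak of Yap1 lay 80 bases inside its span.

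Lats2 (NCBI Gene 50523, chromosome 14, 57689662 to 57746212, minus strand) had 8 peaks, in 3 places: at the first annotated start, at the second annotated start and over the 3′ part of the span. The peak at the first start, at 57745897 to 57746116, had 13.5-fold enrichment (8.59 to 20.3), with 21 IP fragments and a background of only 0.630. Its summit lay 103 bases after that start. With nothing added to either term the ratio would be 33.3, so the size of this value depends on the convention. The summit also lay inside Gm52140, a protein-coding gene model on the plus strand that shares 7626 bases with Lats2, and it was the only member summit inside a further gene. The peak at the second start, at 57733920 to 57734587, lay in Lats2 alone and had 11.5-fold enrichment (9.38 to 14.0) with 100 IP fragments and a background of 7.78. Its summit lay 88 bases after the second start.

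The other 6 Lats2 peaks lay within 13449 bases of the 3′ end. From 5′ to 3′ their folds were 6.52, 9.83, 7.71, 6.54, 5.57 and 9.67. The peak of 9.83-fold (8.11 to 11.8), at 57699262 to 57700656, was 1395 bases wide and had 112 IP fragments. The peak nearest the 3′ end, at 57690677 to 57691840, had 9.67-fold enrichment (8.14 to 11.4) from 140 IP fragments, with its summit 1451 bases from that end. The intervals of the 9.83-fold and 9.67-fold peaks overlapped those of both start peaks. Lats2 thus had peaks of more than 9-fold near both ends of the gene span. The one at the 5′ end, however, also lay in Gm52140, and its interval, from 21 IP fragments, began at 8.59. The Lats1 peaks of more than 9-fold both lay in the interior, and the peak at the Lats1 start was counted in Pcmt1.

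The upstream regulators Nf2, Amotl1 and Amotl2 carried 25 peaks. Nf2 (NCBI Gene 18016, chromosome 11, 4757639 to 4849544, minus strand) encodes merlin, a tumour suppressor that links the cell cortex to the Lats kinases. Its 4 peaks were narrow, 205 to 276 bases wide, and lay close together, between 24738 and 32207 bases from the 3′ end of a span of 91.9 kb. From 5′ to 3′ their folds were 7.07 (5.12 to 9.53), 6.16 (4.17 to 8.81), 10.3 (7.29 to 14.1) and 4.88 (3.47 to 6.67). The highest, at 4784475 to 4784750, had 36 IP fragments over a background of 2.59, and the interval of the 4.88-fold peak lay below its own. Nf2 had no peak at either annotated start and none near the 3′ end.

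Amotl1 and Amotl2 encode relatives of angiomotin that bind Yap1 and join it to cell junctions. Amotl1 (NCBI Gene 75723, chromosome 9, 14541966 to 14662974, minus strand) had 13 peaks, and 98.8% of peak-carrying protein-coding genes had fewer. None was high: the folds ran from 3.20 (2.60 to 3.89) to 6.62 (5.19 to 8.32), with a median of 5.27. The highest, at 14550412 to 14550746, had 71 IP fragments, and the intervals of 10 of the other 12 overlapped its own. The peak at 14592772 to 14593828 had the most IP fragments of all member peaks, 176, over the highest background, 37.1, and reached 4.65-fold (3.99 to 5.39). All 13 summits lay between 5794 and 73398 bases from the 3′ end, and 9 were within 50 kb of it. The most 5′ of them lay 364 bases before the annotated start in the RefSeq table, inside the longer gene span.

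Amotl2 (NCBI Gene 56332, chromosome 9, 102717091 to 102733418, plus strand) had the most peaks for its length of the 10 members. Its 8 peaks covered 27.9% of a span of 16.3 kb, whereas the 13 peaks of Amotl1 covered 4.01% of 121.0 kb. The highest of all member peaks lay here, at 102719941 to 102720848: it reached 13.6-fold (11.1 to 16.4), with 105 IP fragments and a background of 6.79. The next was a peak of 1372 bases near the 3′ end, at 102731475 to 102732846, with 10.4-fold enrichment (8.52 to 12.5) from 108 IP fragments and its summit 1298 bases from that end. The other 6 peaks ran from 3.35-fold (2.51 to 4.40) to 7.39-fold (5.55 to 9.64), and their intervals all lay below that of the highest. The peak that began at the annotated start was among them, at 4.74-fold (2.68 to 7.87) from 13 IP fragments. The interval of the highest Amotl2 peak lay above that of every Amotl1 peak.

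**Figure D2:**
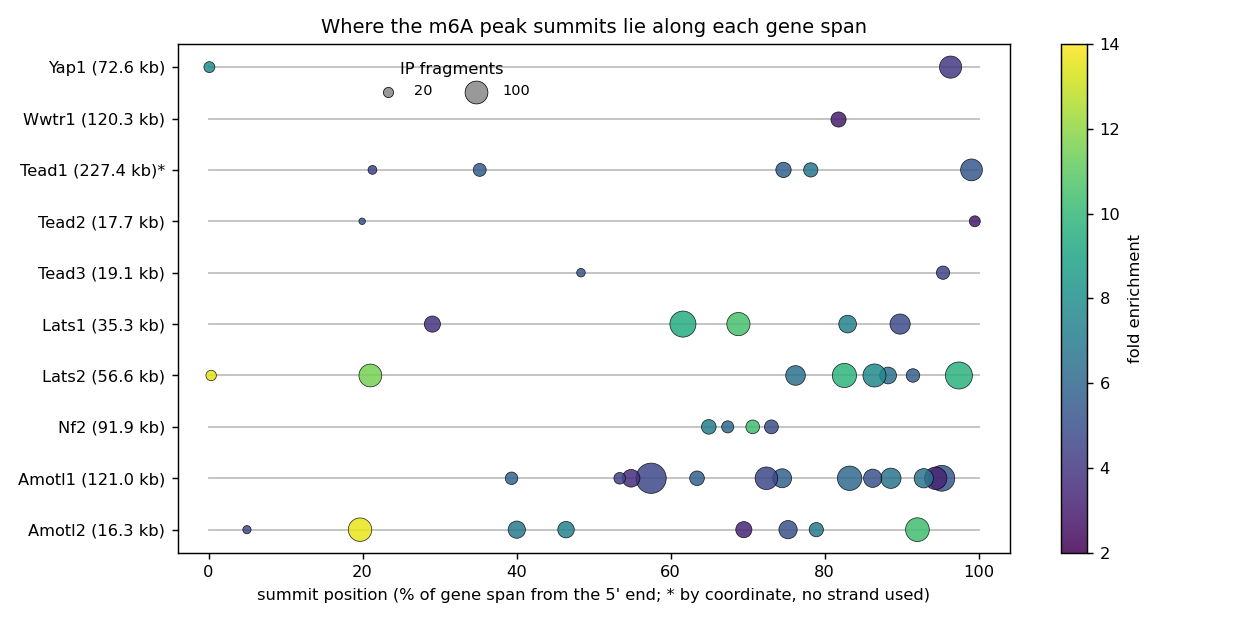
Summit position as a percentage of the gene span from the 5′ end (horizontal axis; Tead1, marked with an asterisk, by coordinate) for each gene, with circle area proportional to IP fragments and colour giving fold enrichment. Lats2 has circles at both ends, the Nf2 circles lie together, and the Amotl2 circles are spread along the span.

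Along the 9 genes with a known strand, the 45 summits had a median position of 73.1% of the span from the 5′ end, where 24195 peaks in single protein-coding genes had a median of 71.5%. A summit within 1000 bases of the 3′ end was found for 2 of the 45 (4.44%), in Tead2 and Tead3, against 15.5% of those 24195 peaks. Within 5000 bases the count was 10 (22.2%), against 42.0%. Counted by gene, 6 of the 9 members had a summit within 5000 bases of the 3′ end, where 76.7% of 8943 protein-coding genes had one. Amotl1, Wwtr1 and Nf2 were the others, with their nearest summits 5794, 21911 and 24738 bases from it. Near the 5′ end, 3 of 45 summits (6.67%) were within 1000 bases, in Yap1, Lats2 and Amotl2, against 10.1%. The 45 include the first Lats2 summit, which lies in 2 genes, while the comparison peaks lie in 1 gene. Without it, the median position of the other 44 was 73.8%, and 2 of them (4.55%) lay within 1000 bases of the 5′ end and 2 within 1000 bases of the 3′ end. Peaks of at least 1000 bases made up 6 of the 50 (12.0%), against 10.04% of all peaks: 2 in Lats2 and 1 each in Lats1, Tead1, Amotl1 and Amotl2. The members have long spans and many peaks each, peaks of 1 gene share its transcripts, and no exon positions were used here, so whether these summits lie in coding or untranslated parts is not given.

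The depth behind the folds differed among the genes. The TEAD peaks had a median of 32 IP fragments over a median background of 4.94, and the Lats peaks had 78 over 10.5. The 3 coactivator peaks had a median of 44 over 14.2, and the 25 peaks of Nf2, Amotl1 and Amotl2 had 60 over 9.51. The background at every member summit stood above 0.462, the lowest background in the peak list. The background at the highest peak had a median of 3.77 over the members and 3.09 over all peak-carrying protein-coding genes.

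**Figure D3:**
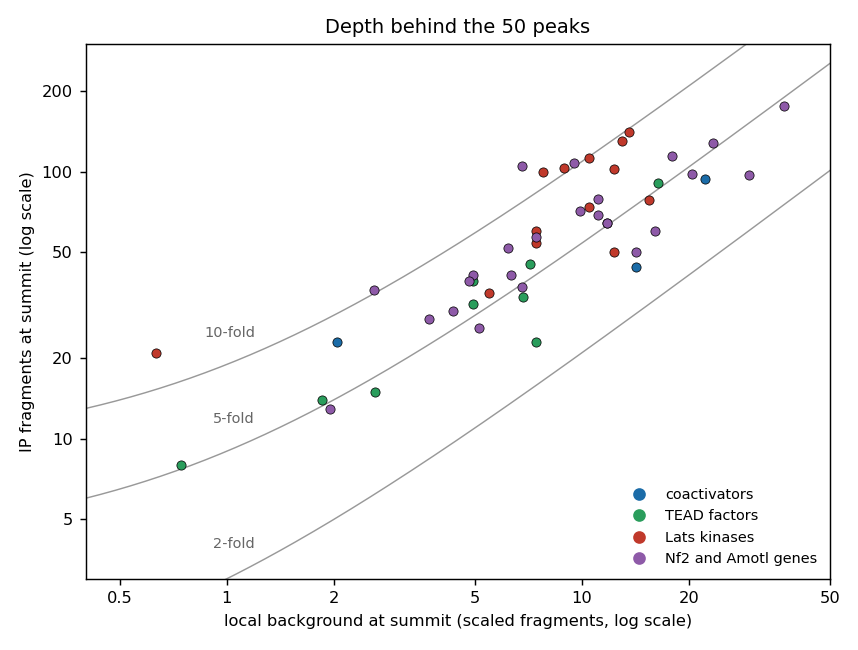
IP fragments (vertical axis, log scale) against local background in scaled fragments (horizontal axis, log scale) at the 50 summits, coloured by role, with grey lines of equal fold. The leftmost point is the Lats2 peak with 21 fragments over 0.630, and the topmost point is the Amotl1 peak with 176 fragments over 37.1.

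Ordered by their highest peak, the members ran from Amotl2 at 13.6-fold and Lats2 at 13.5-fold through Lats1 at 10.5-fold, Nf2 at 10.3-fold, Yap1 at 7.90-fold, Tead1 at 6.73-fold, Amotl1 at 6.62-fold, Tead3 at 5.26-fold and Tead2 at 5.17-fold to Wwtr1 at 2.96-fold. The intervals of each pair of neighbours in this order overlapped. The order depends on the added fragment: with nothing added, Lats2 came first at 33.3 and Amotl2 next at 15.5, Nf2 at 13.9 stood above Lats1 at 11.6, and Tead2 at 10.8 stood above Tead1 at 7.89, Tead3 at 7.56 and Amotl1 at 7.19. A peak of at least 10-fold was present in 4 of the 10 genes, Amotl2, Lats2, Lats1 and Nf2, where 17.5% of all protein-coding genes and 31.4% of those with a peak had one. The other 6 members lay below the median highest fold of all peak-carrying protein-coding genes. The median of the highest fold was 7.32 over the members and 8.04 over those genes. The set at 10-fold also depends on the added fragment: with nothing added, Yap1 at 11.3 and Tead2 at 10.8 reached it too. The share of all protein-coding genes at 10-fold with nothing added was not computed. Amotl1, the member with the most peaks, had a highest fold of 6.62, below the median of 8.04. These comparisons took no account of how many peaks a gene had. Whether genes with more peaks tend to have a higher highest fold was not tested.

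**Figure D4:**
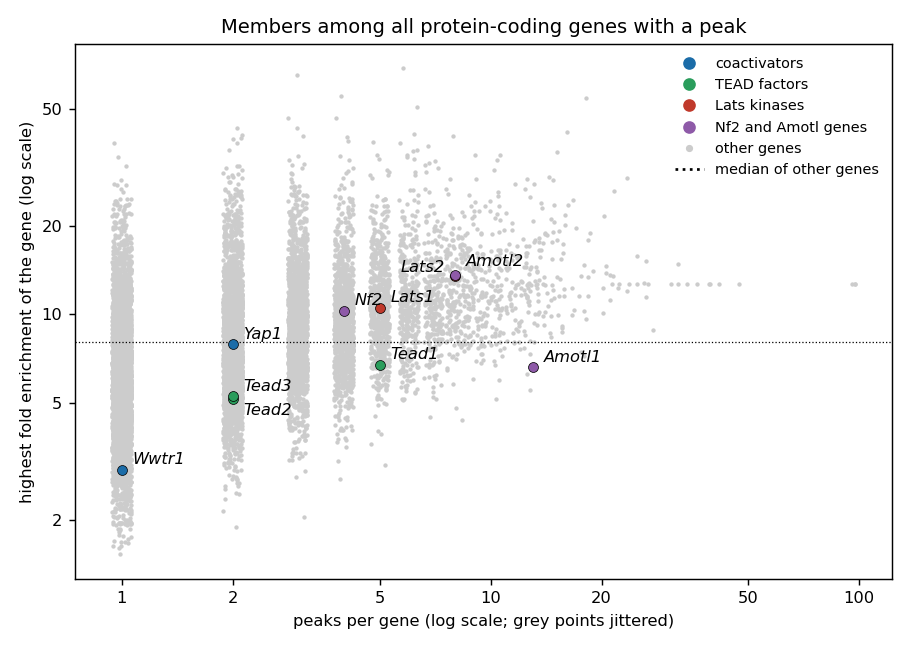
Number of peaks (horizontal axis, log scale) and highest fold enrichment (vertical axis, log scale) of each protein-coding gene with a peak, with the members coloured by role and other genes in grey. The dotted line is the median of the other genes; Lats2 and Amotl2 lie above it with 8 peaks each, and Amotl1 lies below it with 13.

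Other genes of the pathway, taken as 4 lists from general knowledge, also carried peaks in most cases, where 55.7% of all protein-coding genes had one. These lists were chosen with earlier results of these data known, and gene span was not matched. Of 7 further genes of the kinase cassette 6 had a peak, with a median highest fold of 10.4. The highest was Sav1, the scaffold of the Mst kinases, at 21.2-fold (17.9 to 24.9) from 142 IP fragments. Stk3, which encodes the kinase Mst2, reached 16.5-fold (11.8 to 22.5) and had 14 peaks, and Stk38l, a relative of the Lats kinases, reached 10.7-fold (6.97 to 15.9). Mob1a, which encodes a Lats cofactor, had no peak, and the only summit in its paralog Mob1b, a gene named after its values were seen, lay inside 2 genes. Of 21 upstream regulators and junction partners 18 had a peak, with a median highest fold of 9.89. They were led by the junction protein gene Ajuba at 25.1-fold (20.1 to 30.9) and by the kinase genes Map4k4 at 22.5-fold (17.8 to 28.0) and Taok3 at 20.1-fold (14.8 to 26.9). Amot, the paralog of Amotl1 and Amotl2, had 1 peak of 7.01-fold (4.86 to 9.81). Wtip, Scrib and Crb3 had none.

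Among 5 further nuclear partners 3 had a peak (60%), near the share of all protein-coding genes. Vgll4, which competes with Yap1 for TEAD factors, reached 13.3-fold (9.22 to 18.6), and Vgll3 reached 11.5-fold (9.30 to 14.2). Tead4, the fourth TEAD gene, had 4 peaks and reached 5.93-fold (5.04 to 6.93) with 155 IP fragments. Vgll1 and Vgll2 had no peak. Of 20 genes of a YAP/TAZ target signature 17 had a peak, with a median highest fold of 8.59. The highest were Rbms3 at 29.1-fold (23.0 to 36.4), Crim1 at 16.4-fold (12.4 to 21.4) and Ccdc80 at 14.7-fold (12.3 to 17.6). Ankrd1, Myof and Foxf2 had none. Ccn1 and Ccn2, the best known targets, were named after their values were seen: Ccn1 had 1 peak of 7.56-fold (6.25 to 9.07), and Ccn2 had 3, of which the highest, at 12.3-fold (9.09 to 16.3), had its summit in 2 genes. Counting each gene 1 time, 43 of 52 (82.7%) had a peak, against the 55.7% of all protein-coding genes, a share taken over all genes, expressed in this tissue or not. A gene without a peak may lack the mark, the transcript or the coverage, and these cannot be told apart without expression values.

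**Figure D5:**
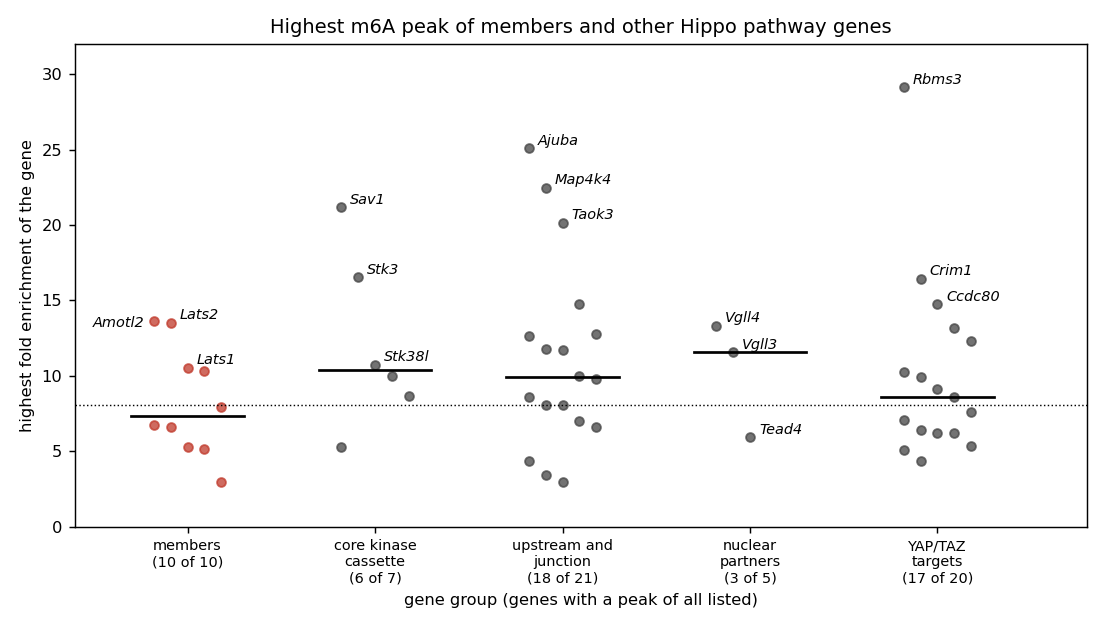
Highest fold enrichment of each gene with a peak (vertical axis, linear) for the 10 members and the 4 lists of other pathway genes, with the number of genes with a peak of all listed under each group. Short bars are group medians and the dotted line is the median of all peak-carrying protein-coding genes, 8.04; the members' median is 7.32.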

How the data were processed

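Libraries were built from TRIzol-extracted total RNA of whole uterus with a directional kit, per the labels' protocols. HISAT2 2.2.1 and MACS3 3.0.0a7 were used on mm10, per the submitters' processing notes. How either was set is not given in the sources used here. A single deposited peak list of the IP library against the input was the only file. Its fold enrichment is a ratio as the authors' peak caller wrote it, and its −log10 p and −log10 q, as deposited, are those at the summit (lowest −log10 q 1.32). The deposited display score was not used. Positions, deposited counted from 0, are printed counted from 1.

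A summit inside a gene span of the RefSeq table (GRCm38.p6; 49632 genes, after 365 outside the assembled chromosomes were left out) tied a peak to a gene. Strand and transcript starts came from the RefSeq start windows, which held 9 of the 10 members and not Tead1. IP fragments and background were solved from the deposited fold and p, and matched the −log10 p within 0.001 at 100% of peaks. On simulated data, 100% of 2000 fragment counts were recovered. The members and the lists of other pathway genes were chosen with earlier results of these data known. Apart from genes said to be named after their values were seen, text names were set as all members, Tead4, Amot, the 3 highest genes of each list and the genes without a peak where these were at most 5. A planned marker of other tissues is not reported here. Alternatives were stricter peaks (−log10 q from 5 upward, or fold from 4 upward), other overlap rules, summits in 1 gene, merged intervals, nothing added to the fold, the median per gene and other distances to the 3′ end. The tools were scipy 1.17.1 and numpy 2.4.6 for the intervals, pandas 2.3.3 for the joins and matplotlib 3.10.9 for the plots, under Python 3.11.15.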

Additional observations from a re-analysis of the deposited data

How the results depend on the processing

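All 10 members kept a peak with summits in 1 gene only, against 51.1% of protein-coding genes. They also kept one under other overlap rules, for which the share of all protein-coding genes was not computed. With a −log10 q of at least 5, 9 had one (all but Tead2), against 53.1% of protein-coding genes. With a fold of at least 4, 9 had one (all but Wwtr1), against 51.5%. The number of member peaks, 50, stood between 44 (fold of at least 4) and 51 (overlap of 1 base). The other pathway genes with a peak numbered 41 to 43 of 52. The share of all protein-coding genes with a peak ran from 51.1% to 55.7% over the deposited, q, fold and single-gene settings. The median of the members' highest folds, 7.32, became 7.90 with a −log10 q of at least 5, 11.0 with nothing added to either term and 5.77 with each gene's median peak in place of its highest. The same median over all peak-carrying protein-coding genes was 8.04, 8.21, 12.0 and 6.16, above that of the members in each case. The share of member summits near the 3′ end, 4.44% within 1000 bases, was 2.22% within 500, 8.89% within 2000 and 22.2% within 5000, against 9.24%, 25.2% and 42.0% of all peaks in single genes. With nothing added, the highest folds of Lats2 and Tead2 moved outside their intervals, to 33.3 and 10.8, and those of the other 8 members did not. Leaving out summits in several genes put the highest fold of Lats2 at 11.5. Depth limits the Tead2, Tead3 and 5′ Amotl2 peaks most, which rest on as few as 8, 14 and 13 IP fragments. No paired analysis was possible because each group is 1 library.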

Other observations

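Within 10000 bases outside the gene span, 8 of the 10 members had no further summit, where 53.0% of protein-coding genes with a peak had none. Beside the peak at the shared start of Lats1 and Pcmt1, the other 3 lay on the 3′ side of Tead3, inside neighbouring genes. A pair of them lay in Rpl10a, a ribosomal protein gene, 2349 and 2866 bases beyond the Tead3 span, at 4.93-fold (3.92 to 6.12) and 4.13-fold (2.83 to 5.85). The last lay in Fance, a gene of the Fanconi anaemia DNA repair pathway, 5306 bases beyond it, at 2.38-fold (1.48 to 3.65). The other genes that overlap a member span were Gm16016 in Wwtr1, Gm26440 in Lats2 and Gm34263 in Amotl1, and none of them held a summit of that member.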
